A study of Homo sapiens with 26 samples.

Results

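A set of 10 noncoding RNA genes was followed through a proximity-labelling experiment as gauges of what a ribosome pulldown carries along: MALAT1, NEAT1, RN7SL1, RN7SL2, RN7SK, RMRP, RPPH1, NORAD, GAS5 and SNHG1. These 10 of the 60663 genes in the RNA-seq table were chosen by name, selected on their RNA-seq level, their log2 ratio of pulldown over total in each group and their exon counts in ribosome profiling. All these values are therefore described here without a test of the 10 genes, and estimates carry a standard error (SE) or an approximate 95% interval from a fit across all genes. LOCL-TL uses LOV-BirA, a biotin ligase switched on by blue light, to biotinylate nearby ribosomes that carry an Avi tag on RPL29. Streptavidin beads then capture the labelled ribosomes, and the pulldown is compared with the total input of the same lysate. All cells were HEK293T, a human embryonic kidney line, from a monoclonal RPL29-Avi knock-in that the controls carried too.

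RNA-seq of intact transcripts pulled down with LOV-BirA at the outer mitochondrial membrane (OMM) covered 7 lysates and 14 libraries. There were 2 lysates of wild type cells with a negative control gRNA, 2 of AKAP1 null cells, 2 of LARP4 null cells and 1 of cells without cycloheximide (CHX), a translation elongation inhibitor. Each null genotype was 1 monoclonal line, and treatment of these genotypes with CHX was taken from the general protocol, not from the sample labels. The labels of the lysate without CHX name no genotype or gRNA, and it was taken as wild type in the figures. It also received a shorter labelling pulse by the study's methods. Its lack of CHX, its pulse and any difference of cell line thus cannot be told apart. Ribosome profiling, which sequences the nuclease-protected footprints, covered LOV-BirA at the ER (Sec61β fusion), at the OMM (transmembrane domain of OMP25) and in the cytosol, with 2 lysates each and 12 libraries. The fusions were stably integrated with a lentivirus and driven by the EF1α promoter, or the SFFV promoter for the ER fusion. The study calls the replicates of OMM footprint enrichment biological, and nothing says whether those of the other groups were separate cultures. Standard errors and calls thus measure only the spread between these lysates.

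RNA-seq totals ran from 38347615 to 100840544 counts per library and footprint totals from 1638307 to 29633958. The AKAP1 transcript was at 114.5 to 119.5 CPM (the count of a gene scaled to a common library total) in the wild type total inputs and at 20.3 to 32.2 CPM in the AKAP1 null ones, and LARP4 was at 225.0 to 231.3 CPM in wild type and 74.0 to 79.3 CPM in LARP4 null cells. Of the HEK293T markers, PAX2, NEFM and NEFL were present in all 14 libraries (lowest 4.89 CPM), and PTPRC and ALB stayed at or below 0.165 CPM, whereas CDX2, a gut marker listed as absent, was at 21.3 to 40.0 CPM. Replicate 2 of LARP4 null stood apart: its median log2 pulldown over total for 1170 lncRNAs was 0.32, against −0.53 to −0.16 in the other 6 lysates, and differences that rest on it are given with and without it.

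The RNAs differ in where they act. RN7SL1 and RN7SL2 encode 7SL, the RNA scaffold of the signal recognition particle (SRP), which binds signal sequences as they leave the ribosome and brings the ribosome to the ER. MALAT1 and NEAT1 are long nuclear RNAs of nuclear speckles and paraspeckles, RN7SK holds the elongation factor P-TEFb in an inactive state in the nucleus, and RPPH1 and RMRP are the RNA subunits of RNase P and RNase MRP, which process tRNA and rRNA precursors. NORAD is a mostly cytoplasmic lncRNA with a role in genome stability. GAS5 and SNHG1 carry small nucleolar RNAs (snoRNAs) in their introns, and their spliced exons reach the cytoplasm, where ribosomes engage their short reading frames and nonsense-mediated decay removes them.

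Whether each RNA could be counted differed between the genes. RN7SL1 and RN7SL2 belong to a family of near-identical genes and pseudogenes, so counts of RN7SL1 are those of reads the authors' counting gave to this copy. Over the 680 entries named as 7SL genes or pseudogenes, RN7SL1 took 87.7% to 95.4% of the counts of a library, and 237 entries were at 0 in every library.

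Only 6 of the 10 genes had RNA-seq counts. RN7SL2, RN7SK, RMRP and RPPH1 were at 0 in all 14 libraries, where a count of 0 allows up to 0.0297 to 0.0782 CPM by depth (3 counts, counting error only). Each of the 4 lay entirely inside a second entry on the same strand. The second entry had 32 to 158 counts over RN7SL2 (300 bases shared), 0 over RN7SK (328 bases), 0 to 2 over RMRP (264 bases) and 0 to 11 over RPPH1 (333 bases). RN7SL1 shared no base with another entry. How reads in 2 entries were counted is not given in the sources used here, its part in these zeros was not tested, and no level of these 4 RNAs can be read from the tables.

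In the footprint tables the authors masked positions that do not map uniquely. The countable length left was 0 for RN7SL2, RN7SK, RMRP and RPPH1, 12 bases for RN7SL1, which was at 0 in all 12 libraries, and 604 of 5401 bases for NORAD. It was 8672 of 8829 bases for MALAT1, 19823 of 22767 for NEAT1, 3544 of 4842 for GAS5 and 3321 of 3970 for SNHG1. MALAT1, GAS5 and SNHG1 had at least 64 exon counts in both total inputs at each location, the minimum used here. The study set the same number for footprints in coding sequence, which these RNAs lack. NEAT1 had 0 to 65 and NORAD 1.5 to 56.5 estimated counts per library.

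RN7SL1 was the most abundant of the 6 RNAs per length and the one most depleted by the pulldown. Its median total input with CHX was 30818 CPM per kb of exon, against 241.9 for MALAT1, 81.8 for NORAD, 31.3 for GAS5, 30.5 for SNHG1 and 7.39 for NEAT1. GAS5 and SNHG1 had overlapping ranges, 23.4 to 32.8 and 25.4 to 31.8 CPM per kb, and did not differ beyond their spread, and no other neighbours in this order overlapped.

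**Figure D1:**
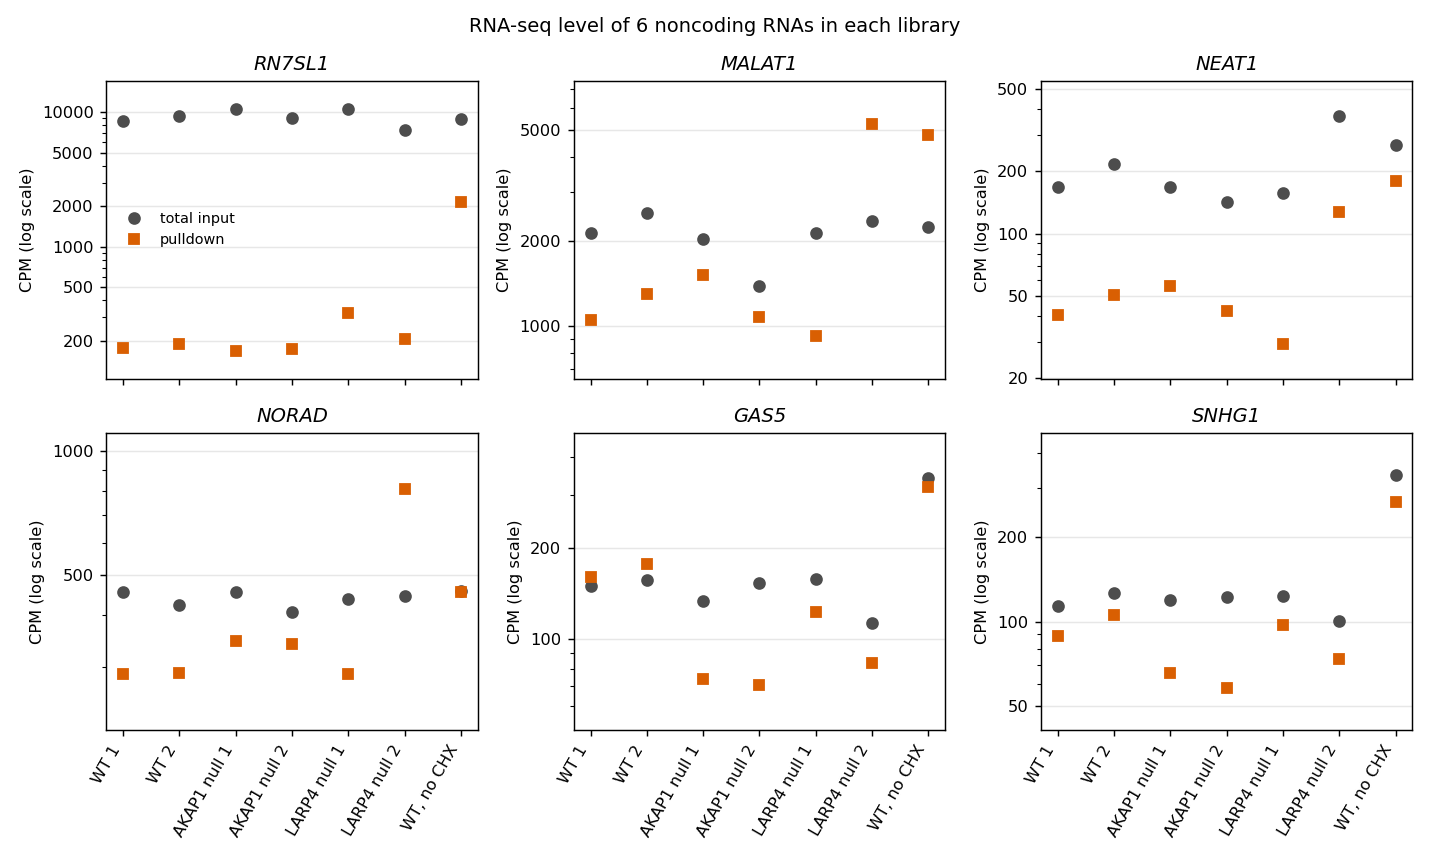
RNA-seq level (CPM, log scale) of 6 noncoding RNAs in the total input (grey circles) and pulldown (orange squares) of each of the 7 lysates. RN7SL1 lies far lower in the pulldown of every lysate, while the MALAT1 pulldown exceeds its total input in LARP4 null replicate 2 and without CHX.

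In the total inputs RN7SL1 stood at 8656 and 9386 CPM in wild type, 10510 and 9044 CPM in AKAP1 null, 10639 and 7358 CPM in LARP4 null and 8932 CPM without CHX. In the pulldowns it stood at 177.8 and 190.5 CPM, 168.1 and 173.1 CPM, 322.1 and 205.8 CPM, and 2148 CPM in the same order. The pulldown levels of the 3 genotypes with CHX lay far below every total input, and the lysate without CHX lay in between. The log2 ratio of pulldown over total was −5.61 and −5.62 in wild type, −5.97 and −5.71 in AKAP1 null and −5.05 and −5.16 in LARP4 null, so that total over pulldown ran from 33-fold to 62.5-fold. Without CHX the log2 ratio was −2.06, or 4.16-fold. The pulldown level without CHX was 11.7-fold that of wild type with CHX, while the total inputs differed by 0.990-fold. Of 13856 genes with a mean of at least 64 counts, 1 to 3 had a lower ratio than RN7SL1 in the lysates with CHX and 23 without CHX.

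**Figure D2:**
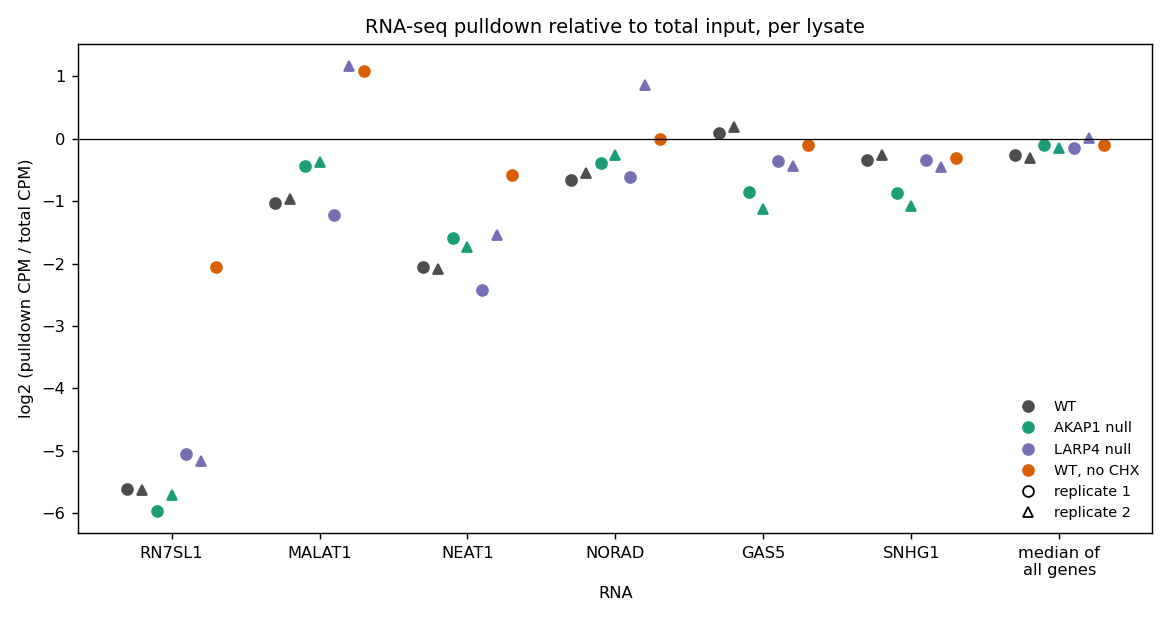
RNA-seq log2 ratio of pulldown CPM over total CPM for 6 noncoding RNAs and, at right, the median of all 13856 genes, with 1 point per lysate (colour for group, shape for replicate). RN7SL1 sits between −5.97 and −5.05 with CHX and at −2.06 without, and MALAT1 and NORAD are split between the 2 LARP4 null lysates.

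The other small structured RNAs on the list drawn up beside the 10 genes were low in the pulldown too. Of 17 listed, 4 were at 0 in every library and 7 had enough counts. Their median log2 ratio was −3.21 and −3.52 in wild type, against −0.27 and −0.31 for all genes. RN7SL3, the most abundant of them, was at −5.71 and −5.56 in wild type and −1.99 without CHX, and the snoRNA gene SNORD3A (U3) at −2.89 and −3.09 in wild type and −1.66 without CHX. The mRNAs of the 6 SRP proteins lay near all genes, with a median log2 ratio of −0.18 and −0.22 in wild type. SRP72, an SRP protein mRNA, was at −0.39 and −0.45, and SRP9 at −0.30 and −0.13.

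NEAT1 was the next most depleted of the 6 RNAs. Its total input was 167.8 and 216.7 CPM in wild type, 168.6 and 141.8 CPM in AKAP1 null, 157.9 and 370.1 CPM in LARP4 null and 268.0 CPM without CHX. Its pulldown was 40.5 and 50.7 CPM, 55.9 and 42.4 CPM, 29.4 and 126.5 CPM, and 179.8 CPM. Both libraries of LARP4 null replicate 2 thus held more NEAT1 than any other lysate with CHX. The log2 ratio was −2.05 and −2.09 in wild type, −1.59 and −1.74 in AKAP1 null, −2.42 and −1.55 in LARP4 null and −0.58 without CHX. From 64 to 179 of the 13856 genes had a lower ratio with CHX, and 3162 without CHX.

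MALAT1 went from depleted to enriched between lysates. Its total input varied less than its pulldown, with 2136 and 2536 CPM in wild type, 2047 and 1388 CPM in AKAP1 null, 2136 and 2358 CPM in LARP4 null and 2249 CPM without CHX. Its pulldown was 1051 and 1295 CPM in wild type, 1513 and 1071 CPM in AKAP1 null, 918.1 and 5275 CPM in LARP4 null and 4784 CPM without CHX. The highest 2 pulldowns, LARP4 null replicate 2 and no CHX, were the only ones above their own total input. The log2 ratio was −1.02 and −0.97 in wild type, −0.44 and −0.37 in AKAP1 null, −1.22 and 1.16 in LARP4 null and 1.09 without CHX. Its place in the genes tested moved accordingly, from 5.21% of genes with a lower ratio in LARP4 null replicate 1 to 96.2% in replicate 2.

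Among 8 other nuclear lncRNAs, 6 had enough counts. Their median log2 ratio was −1.13 and −1.05 in wild type, −0.98 and −1.29 in AKAP1 null, −1.37 and −0.22 in LARP4 null and −0.89 without CHX. TUG1, the most abundant, was at −0.70 and −0.70 in wild type and at −0.70 and 0.67 in LARP4 null, so its 2 LARP4 null lysates were on opposite sides of 0, as for MALAT1. JPX and FTX, both of the X inactivation locus, were at −0.88 and −0.86, and −2.02 and −2.04, in wild type. FTX was at −2.33 and −1.10 in the LARP4 null lysates. The mRNAs of 7 paraspeckle proteins lay near all genes, with a median of −0.30 and −0.47 in wild type. Those of 7 proteins of the 7SK particle and P-TEFb were at −0.25 and −0.34, and those of 11 RNase P and RNase MRP proteins at 0.61 and 0.74.

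NORAD was mildly depleted in most lysates. Its total input was 456.2 and 423.0 CPM in wild type, 454.7 and 408.3 CPM in AKAP1 null, 438.0 and 445.8 CPM in LARP4 null and 457.1 CPM without CHX. Its pulldown was 288.1 and 289.0 CPM, 346.4 and 340.5 CPM, 287.8 and 810.1 CPM, and 456.5 CPM. The total input hardly moved, and LARP4 null replicate 2 was again the highest pulldown. The log2 ratio was −0.66 and −0.55 in wild type, −0.39 and −0.26 in AKAP1 null, −0.61 and 0.86 in LARP4 null and −0.0018 without CHX.

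GAS5 was the only one of the 6 above 0 in wild type, and it lay below 0 in both null lines. Its total input was 149.9 and 156.8 CPM in wild type, 134.2 and 153.0 CPM in AKAP1 null, 158.8 and 113.1 CPM in LARP4 null and 342.8 CPM without CHX. Its pulldown was 160.5 and 177.6 CPM in wild type, 73.9 and 70.4 CPM in AKAP1 null, 123.4 and 83.7 CPM in LARP4 null and 319.1 CPM without CHX. The pulldowns of the null lines did not overlap those of wild type. The log2 ratio was 0.10 and 0.18 in wild type, −0.86 and −1.12 in AKAP1 null, −0.36 and −0.43 in LARP4 null and −0.10 without CHX. GAS5 shares bases with entries on the opposite strand, 42 of them with GAS5-AS1, and the strand setting of the counting is not given in the sources used here.

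SNHG1 was lowest in the pulldowns of AKAP1 null cells. Its total input was 113.3 and 126.3 CPM in wild type, 119.1 and 122.7 CPM in AKAP1 null, 123.8 and 100.8 CPM in LARP4 null and 332.6 CPM without CHX. Its pulldown was 89.0 and 105.6 CPM, 65.5 and 58.1 CPM, 97.4 and 73.2 CPM, and 267.1 CPM. The total inputs of both host genes without CHX were above all others, 2.24-fold (GAS5) and 2.78-fold (SNHG1) the wild type mean with CHX. The log2 ratio of SNHG1 was −0.35 and −0.26 in wild type, −0.86 and −1.08 in AKAP1 null, −0.35 and −0.46 in LARP4 null and −0.32 without CHX.

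The direction of the ratios depended little on scaling, with exceptions close to 0. Library totals set the scale above. TMM, which centres the bulk of genes, raised the group means by 0.35 in wild type, 0.21 in AKAP1 null, 0.08 in LARP4 null and 0.12 without CHX. The 2 LARP4 null lysates moved in opposite directions. MALAT1 went from −1.22 to −1.01 in replicate 1 and from 1.16 to 1.12 in replicate 2. Under TMM the mean of SNHG1 in wild type went from −0.30 to 0.05 and that of GAS5 without CHX from −0.10 to 0.02. The mean of NORAD without CHX went from −0.0018 to 0.12 and that of MALAT1 in LARP4 null from −0.03 to 0.06. The other 20 means kept their sign. In wild type 61.9% of the 13856 genes were below 0 in both lysates, against 5 of the 6 RNAs. In AKAP1 null all 6 were below 0 in both lysates, as were 53.4% of genes, in LARP4 null 4 were (all but MALAT1 and NORAD), as were 43.1% of genes, and without CHX 5 were (all but MALAT1), as were 55.6% of genes. The ratio without CHX was above both wild type lysates for 4 of the 6 RNAs (RN7SL1, MALAT1, NEAT1 and NORAD) and for 59.5% of all genes. The same 4 of 6 were above both wild type lysates in LARP4 null replicate 2, where 62.6% of genes were. These shares are near those of all genes. The size of the difference without CHX was 3.56 on the log2 scale for RN7SL1, 2.08 for MALAT1, 1.5 for NEAT1 and 0.60 for NORAD, beside a median of 0.16 over all genes and 0.29 over lncRNAs. With 1 lysate without CHX there was no test.

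The null lines were null for AKAP1, an RNA-binding anchor protein of the OMM, or LARP4, an RNA-binding protein of the cytoplasm, and each line was set beside wild type in total input and in the pulldown ratio. Over all genes in total input, the edgeR quasi-likelihood test called 0 of 13977 genes in AKAP1 null (0%; 489 at an unadjusted p under 0.05 and 15 by DESeq2) and 2 in LARP4 null (0.0143%; 509 unadjusted and 28 by DESeq2). The largest of the 12 differences for the 6 RNAs were 0.47 (SE 0.38) for NEAT1 in LARP4 null and −0.44 (SE 0.20) for MALAT1 in AKAP1 null. Both rest on single libraries. NEAT1 was at −0.28 without LARP4 null replicate 2, at 0.97 without replicate 1 and at 0.27 without wild type replicate 1. MALAT1 was at −0.74 without AKAP1 null replicate 1, at −0.19 without replicate 2 and at −0.27 without wild type replicate 2.

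The pulldown ratio of GAS5 and SNHG1 was lower in AKAP1 null cells than in wild type. The difference was −1.13 (SE 0.13) for GAS5, a 2.19-fold lower ratio, and −0.67 (SE 0.13) for SNHG1, a 1.59-fold lower ratio. Both null lysates were below both wild type lysates for each RNA. With 1 lysate left out the difference ran from −1.26 to −1.001 for GAS5 and from −0.78 to −0.56 for SNHG1. Over all genes, edgeR called 2006 of 13856 in this contrast, 14.5%, with 7.96% lower and 6.52% higher. Of the 16 other snoRNA host genes, 12 were called lower and 0 higher, with a median change of −1.07 against 0.19 over all genes. This list was drawn up with earlier results known. SNHG16 went from −0.54 and −0.35 in wild type to −1.24 and −1.22, SNHG29 from 0.22 and 0.38 to −0.67 and −0.91, and SNHG3 from −1.53 and −1.83 to −2.11 and −2.03. Over all 1170 lncRNAs, 111 were called lower and 5 higher, with a median change of −0.07.

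The other 4 RNAs differed from wild type by 0.59 (SE 0.59) for MALAT1, 0.41 (SE 0.25) for NEAT1, 0.28 (SE 0.38) for NORAD and −0.22 (SE 0.14) for RN7SL1 in AKAP1 null cells. These standard errors share the spread of the LARP4 null lysates, which is wide for MALAT1 and NORAD. Without LARP4 null replicate 2 the estimates were 0.59 for MALAT1, 0.41 for NEAT1 and 0.28 for NORAD, with smaller standard errors. For MALAT1, NEAT1 and NORAD both AKAP1 null lysates lay above both wild type lysates, and for RN7SL1 both lay below. With 1 lysate left out all 4 kept their sign, and RN7SL1 ran from −0.35 without AKAP1 null replicate 2 to −0.09 without replicate 1.

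**Figure D3:**
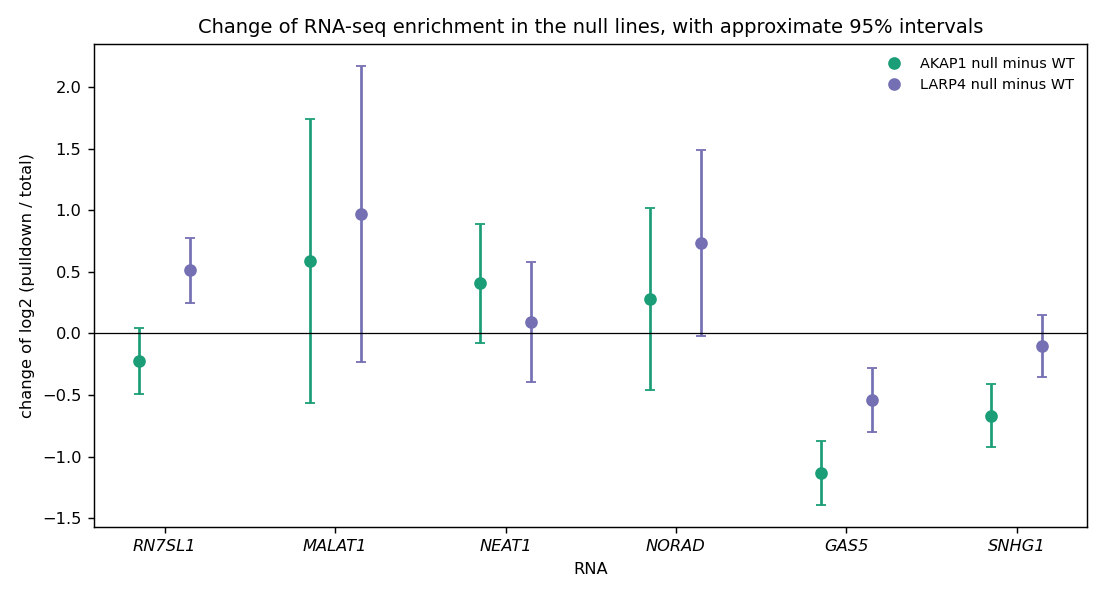
Difference of the RNA-seq log2 ratio of pulldown over total from wild type (y axis) for 6 noncoding RNAs (x axis), with points for the edgeR estimate in AKAP1 null (green) and LARP4 null cells (purple) and bars for approximate 95% intervals from the standard error. GAS5 and SNHG1 are lower in AKAP1 null cells, at −1.13 and −0.67, and the intervals of MALAT1 are the widest. All bars include the spread of the LARP4 null lysates, which is wide for MALAT1 and NORAD.

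In LARP4 null cells edgeR called no gene among 13856 (0%; 2270 at an unadjusted p under 0.05 and 507 by DESeq2). The differences from wild type were −0.54 (SE 0.13) for GAS5, −0.10 (SE 0.13) for SNHG1, 0.51 (SE 0.14) for RN7SL1, 0.09 (SE 0.25) for NEAT1, 0.74 (SE 0.38) for NORAD and 0.97 (SE 0.61) for MALAT1. DESeq2, with its own scaling, gave −0.74 for GAS5, −0.31 for SNHG1, 0.31 for RN7SL1 and −0.11 for NEAT1. The values of MALAT1, NEAT1 and NORAD rest on which lysate is used. Without LARP4 null replicate 2, MALAT1 differed by −0.22, NEAT1 by −0.35, NORAD by 0.0006, RN7SL1 by 0.57, SNHG1 by −0.04 and GAS5 by −0.50. Without replicate 1 the differences were 2.16 for MALAT1, 0.52 for NEAT1, 1.47 for NORAD, 0.45 for RN7SL1, −0.16 for SNHG1 and −0.57 for GAS5. MALAT1 and NEAT1 thus changed sign between the replicates, and GAS5, RN7SL1 and SNHG1 did not. The lone remaining lysate is assumed in these fits to vary like the other groups.

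Ribosome profiling read the same RNAs through footprints over their exons. GAS5 had the highest values. At the OMM its pulldown was 179.9 and 206.4 CPM against 56.0 and 80.7 CPM in total input, a log2 ratio of 1.68 and 1.35. At the ER the pulldown was 83.4 and 67.2 CPM against 82.16 and 75.02 CPM, and in the cytosol 67.6 and 138.1 CPM against 84.4 and 157.8 CPM. Only at the OMM did both pulldowns exceed both total inputs. The edgeR estimate was 1.5 (SE 0.11) at the OMM, a 2.83-fold higher pulldown, −0.06 (SE 0.09, approximate 95% interval −0.25 to 0.12) at the ER and −0.26 (SE 0.09) in the cytosol. At the OMM 16.5% of 8431 genes were called higher and 49% lower, and GAS5 ranked 192 from the highest ratio. TMM moved the median of all genes by 0.61 at the ER and 0.33 at the OMM, and under it GAS5 at the ER was 0.55.

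SNHG1 footprints lay below total input at the ER and in the cytosol. The pulldown was 34.6 and 32.7 CPM against 75.6 and 77.8 CPM at the ER, 38.5 and 36.6 CPM against 73.8 and 93.9 CPM in the cytosol, and 68.4 and 67.9 CPM against 52.7 and 65.4 CPM at the OMM. Pulldown and total did not overlap at any of the 3 locations. The estimate was −1.19 (SE 0.11) at the ER and −1.14 (SE 0.11) in the cytosol, where 72% and 6.84% of genes were called lower. Under TMM the ER estimate was −0.58. At the OMM it was 0.19 (SE 0.14), 0.52 under TMM, 0.06 without mito replicate 1 and 0.38 without mito replicate 2.

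MALAT1 footprints lay below total input at every location. The pulldown was 18.5 and 16.6 CPM against 80.4 and 70.0 CPM at the ER, 12.7 and 30.4 CPM against 71.9 and 277.1 CPM in the cytosol, and 13.4 and 20.4 CPM against 31.3 and 40.7 CPM at the OMM, the last from 22 and 82 pulldown counts. The total input of cytosol replicate 2 stood above all others. The estimate was −2.10 (SE 0.13) at the ER, −2.88 (SE 0.13) in the cytosol and −1.06 (SE 0.20) at the OMM. In the cytosol 0.368% of genes had a lower ratio. Without the lysate term the SE rose to 0.58 in the cytosol and 0.60 at the OMM.

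**Figure D4:**
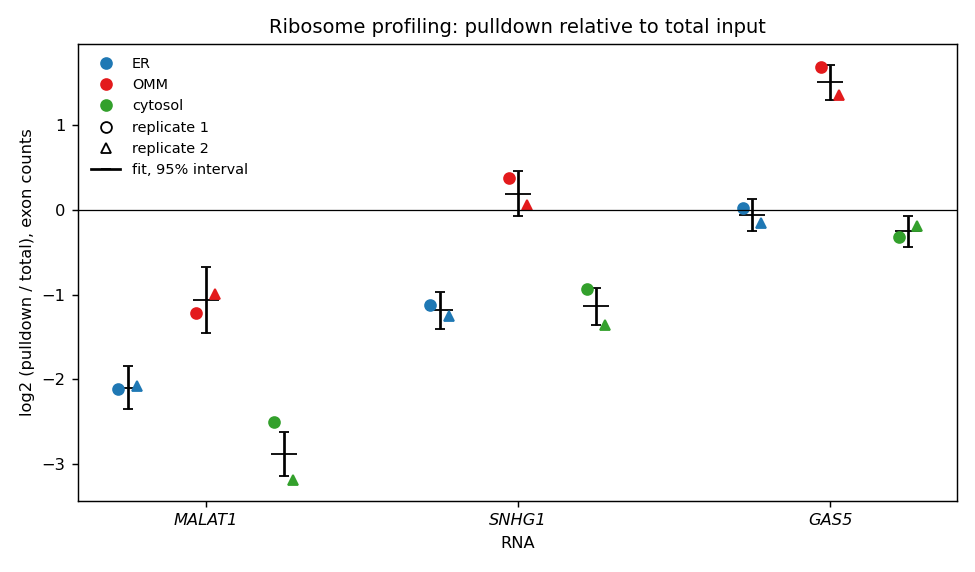
Ribosome profiling log2 ratio of pulldown over total over exons for MALAT1, SNHG1 and GAS5 by LOV-BirA location (colour) and replicate (shape), with the edgeR estimate and its approximate 95% interval in black. At the OMM each RNA lies above its values at the ER and in the cytosol, and GAS5 alone lies well above 0, at 1.68 and 1.35.

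The contrast between locations was added after the values were seen. Against the ER, the OMM ratio was higher by 1.56 (SE 0.14) for GAS5, 1.37 (SE 0.18) for SNHG1 and 1.04 (SE 0.25) for MALAT1, where edgeR called 30.2% of 8395 genes higher. Against the cytosol it was higher by 1.76 (SE 0.14), 1.33 (SE 0.18) and 1.81 (SE 0.26) in the same order, where 15.9% of 8254 genes were called higher. With 1 lysate left out these 6 differences kept their sign, and MALAT1 ran from 0.88 to 1.10 against the ER and from 1.45 to 2.13 against the cytosol. Without the lysate term their SE rose, to 0.81 for MALAT1 and 0.52 for GAS5 in both contrasts. For MALAT1 the OMM pulldowns, at 13.4 and 20.4 CPM, lay within the range of those at the ER and in the cytosol. Its OMM total inputs, at 31.3 and 40.7 CPM, lay below all the others. Between ER and cytosol MALAT1 differed by 0.78 (SE 0.18), where 20.7% of 8604 genes were called higher. That difference was 0.40 without cytosol replicate 2, 1.09 without cytosol replicate 1, 1.38 under TMM and 1.3 by DESeq2. GAS5 differed by 0.19 (approximate 95% interval −0.07 to 0.45; 0.80 under TMM) and SNHG1 by −0.05 (−0.36 to 0.26; 0.55 under TMM). These contrasts share libraries.

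The other snoRNA host genes were also compared in footprints. Of the 10 tested at the OMM, 5 were called higher and 0 lower, beside 16.5% and 49% of all genes. Their median there was 0.41 against −0.38 over all genes. Of 11 tested at the ER 10 were called lower, beside 72% of all genes, and the median was −0.65, as it was over all genes. Of 11 in the cytosol 9 were called lower, beside 6.84% of all genes, with a median of −0.80 against 0.01. All 10 were called higher at the OMM than at the ER and than in the cytosol, with median differences of 1.35 and 1.66. Over all genes 30.2% and 15.9% were called higher in these 2 contrasts, with medians of 0.22 and −0.35. The lncRNAs as a whole were also high, with medians of 1.07 and 1.08. Against the ER 36 of 54 lncRNAs were called higher and 0 lower, and against the cytosol 33 of 51 higher and 1 lower. The small structured RNAs stayed far below 0 at every location, with medians of −3.88 (4 tested) at the ER, −3.81 (4) in the cytosol and −3.47 (2) at the OMM. The mRNAs of the mitochondrial genome are translated by ribosomes inside mitochondria that lack RPL29-Avi. Their medians were −5.43 (8 tested) at the ER, −5.27 (7) in the cytosol and −3.67 (5) at the OMM. Both of these depleted sets were also higher at the OMM than elsewhere. For the mitochondrial mRNAs, 3 of 5 were called higher against the ER and against the cytosol, with median differences of 1.56 and 1.36. For the small structured RNAs, 1 of 2 was called higher in each contrast, with medians of 1.24 and 1.19. A higher ratio at the OMM was thus not particular to the host genes and lncRNAs.

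NEAT1 and NORAD footprints fell short of the minimum of 64 counts. NEAT1 had 24 and 10 pulldown counts against 42 and 18 in total input at the ER, and 18 and 65 against 50.7 and 45 in the cytosol. At the OMM it had 3 and 0 against 12 and 16. With a minimum of 10 counts the NEAT1 estimate was −1.43 (SE 0.43) at the ER, −0.83 (SE 0.36) in the cytosol and −1.58 (SE 0.94) at the OMM. NORAD had 1.5 and 2.83 against 20.8 and 8.6 at the OMM, and its estimates with that minimum were −0.67 (SE 0.42) at the ER and 0.04 (SE 0.33) in the cytosol.

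By Pearson r of log2 CPM over the 14 RNA-seq libraries, which share lysates and fractions, the genes most like MALAT1 were TBC1D16 (r = 0.94), RN7SL832P (0.94) and ZNF691 (0.93). Those most like NORAD were EMC3-AS1 (0.96), BSN (0.95) and ZNF70 (0.95). Those most like GAS5 were SNHG32 (0.97), SLC12A2-DT (0.95) and SNHG1 (0.95). RN7SL2, at 0 throughout, has no pattern to match; RN7SL1, chosen after its values were seen, was closest to RN7SL4P (0.995), RN7SL3 (0.994) and SNORA73B (0.98).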

How the data were processed

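For RNA-seq the sample labels give polyA RNA as the molecule, whereas the study's methods name an rRNA depletion kit. The methods were followed here, and the conflict was not resolved. The authors aligned the read pairs to GRCh38 with STAR 2.7.1a, and the deposited counts are those of featureCounts 1.6.2. Strand and overlap settings are not given in the sources used here. The authors also deposited a column headed FPKM, here called a score because it holds 10 times what the counts and lengths give, and only its ratios were used. For ribosome profiling the authors deposited estimated counts over exons and coding sequence, with positions that are not unique masked; these were rounded for tests, and exon counts were used since these RNAs have no coding sequence. The broken ANK2 lines were left out.

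CPM used library totals. Ratios were log2 of pulldown over total CPM after addition of 0.5 counts. The test was the two-sided quasi-likelihood test of edgeR 4.0.16 (Benjamini-Hochberg over all genes tested, called at adjusted p under 0.05) in R 4.3.3, with all 12 libraries of an assay with CHX in 1 fit, a term per lysate and at least 64 counts. Total inputs of RNA-seq were fitted alone with TMM. Each pulldown is paired with the total input of its lysate by the study's methods, and their deviations correlated at 0.59 to 0.89. SE is the estimate over the root of F, so it holds the spread between lysates, and intervals are 95% and approximate. DESeq2 1.42.0 was an alternative, and the fits were tested on simulated data. Tables and figures used Python 3.11.15, pandas 2.3.3 and matplotlib 3.10.9.

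The 10 genes and the lists were chosen with earlier results of these data known. Of each list, up to 3 genes with the highest mean CPM in total input were named, and for MALAT1, RN7SL2, NORAD and GAS5 the 3 genes with the highest r. Depth ranged from 1638307 to 100840544 counts, and limits from a count of 0 cover counting error only. Some sequences, genes and a list are not reported here.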

Additional observations from a re-analysis of the deposited data

Results flagged for a closer look

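For some RNAs every lysate of one group lay above 0 on the log2 scale of pulldown over total and every lysate of the other below 0. These differences were not tested for the listed RNAs. In RNA-seq, the mean ratio of GAS5 differed from wild type by −1.13 in AKAP1 null cells and −0.54 in LARP4 null cells. In the 1 lysate without CHX the GAS5 ratio differed from wild type by −0.24. Under TMM the GAS5 ratio without CHX was itself above 0, at 0.02, and its difference from wild type was −0.47. The MALAT1 ratio was 2.08 higher without CHX than in wild type, also 1 lysate. In footprints, the OMM mean of GAS5 exceeded that of the cytosol by 1.78, and the OMM mean of SNHG1 exceeded that of the ER by 1.41 and that of the cytosol by 1.36. The groups held 1 or 2 lysates, too few for a check of single samples.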

How the results depend on the processing

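Calls per comparison moved more with the processing than the estimates did. In total input, AKAP1 null had 15 calls by DESeq2 and 165 with no filter, and LARP4 null had 28 and 236, with 0 under the replicate block and 0 to 8 with 1 replicate left out. For the change of RNA-seq enrichment, AKAP1 null had 429 calls with no replicate block and 488 to 6488 with 1 lysate left out, the highest without a LARP4 null lysate; LARP4 null had 507 by DESeq2, 1087 with no filter and 0 to 5664 with 1 lysate left out. TMM moved the AKAP1 null split from 903 higher and 1103 lower to 285 and 1424. Footprint calls at the ER were 4442 by DESeq2 and 5072 by TMM (2756 higher and 2316 lower), and at the OMM 2104 with no replicate block and 3574 to 5843 with 1 lysate left out. In the cytosol they were 512 by DESeq2 and 36 with no replicate block. With no replicate block the contrasts had 1854 (OMM against ER), 523 (OMM against cytosol) and 3064 calls (ER against cytosol), the last also 3730 by DESeq2 and 4289 by TMM. GAS5 at the ER turned to 0.55 by TMM and 0.51 by DESeq2, and SNHG1 between ER and cytosol to 0.55 and 0.49. Over the 42 fitted differences of the listed RNAs, 466 of 492 values under another setting kept their sign and 26 turned. The same replicate number in different genotypes gave correlations of −0.07 to 0.34 in total inputs, so it was not taken as a pairing. The causes were not tested.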
